A study of Mus musculus with 6 samples.

Results

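NF-κB is a family of dimeric transcription factors that governs inflammatory, survival and immune genes. In resting cells the dimers are held in the cytoplasm by IκB proteins. Receptor signals activate the IKK kinases, which mark IκB for degradation and let the dimers enter the nucleus. There they induce, among other genes, their own inhibitors, so that the response limits itself. A slower, non-canonical arm runs through the kinase NIK and converts the p100 precursor to p52, the partner of RELB. In carcinoma cells NF-κB is known for driving chemokines, cytokines and survival genes.

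The mRNAs of 10 genes of this circuit were followed, chosen by name among the 48587 genes of the deposited table. They comprise the subunit genes Nfkb1, Nfkb2, Rela and Relb, the IκB genes Nfkbia, Nfkbie and Nfkbiz, and the feedback or response genes Tnfaip3, Tnfaip2 and Birc3. Total RNA was sequenced from 4T1 cells, a mouse mammary carcinoma line. The METTL7A1 group (3 libraries) had been stably transfected with Mettl7a1 cDNA of full length in the pBICEP-CMV-2 vector and kept under G418 selection, and the mock group (3 libraries) carried the empty vector. Mettl7a1 encodes a putative methyltransferase that 4T1 cells nearly lack, and the comparison asks what its forced expression does to the transcriptome. Whether either line was a clone or a pool is not given in the sources used here. The replicates are described as biological triplicates, and whether these were separately derived lines is not given either, so p values measure only the spread between these libraries.

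Library totals ranged from 18386780 to 28459338 counts, and the lowest count of any of the 10 genes in a library was 273. Abundances are given in cpm, the share of a gene in its library after TMM scaling. Mettl7a1 had 6355, 11358 and 10398 counts in the METTL7A1 libraries and 30, 30 and 29 in mock, so every library followed its label. The 5 epithelial markers Epcam, Krt8, Krt18, Krt19 and Cdh1 were expressed in every library, with a summed level of 1413 to 1733 cpm in mock and 1452 to 1720 cpm in METTL7A1 cells. A gene was called at a Benjamini-Hochberg adjusted p under 0.05 over all 13166 tested genes (edgeR quasi-likelihood test).

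The promoters are shown first, because the feedback loop rests on NF-κB binding at the genes of its own precursors and inhibitors. RefSeq windows (GRCm38.p6, 250 bases before to 50 after a start) were used for 7 of the 10 genes, namely Nfkb2, Rela, Nfkbia, Nfkbie, Tnfaip3, Tnfaip2 and Birc3. The κB consensus was searched on both strands, and overlapping matches were kept. It was found in at least 1 window of 5 of these 7 genes, while 9.55% of the 27025 genes with a window held it. Printed here are the 250 bases before the start of the 5 genes among the 7 that were called as lower in METTL7A1 cells, read 5′ to 3′ along the gene, with consensus matches in capitals.
Nfkbia, chr12:55492648-55492897 on the minus strand: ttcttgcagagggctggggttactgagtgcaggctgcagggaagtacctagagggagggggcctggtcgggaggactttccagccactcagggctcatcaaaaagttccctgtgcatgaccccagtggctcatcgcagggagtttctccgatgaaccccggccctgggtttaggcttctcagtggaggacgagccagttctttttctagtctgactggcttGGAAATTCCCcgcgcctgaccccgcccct
Nfkb2, chr19:46304487-46304736 on the plus strand: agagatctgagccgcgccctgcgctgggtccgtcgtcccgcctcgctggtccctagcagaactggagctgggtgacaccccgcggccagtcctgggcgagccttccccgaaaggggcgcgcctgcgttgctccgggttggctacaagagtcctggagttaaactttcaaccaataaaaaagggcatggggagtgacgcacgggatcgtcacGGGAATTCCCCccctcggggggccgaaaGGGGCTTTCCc
Tnfaip3, chr10:19015411-19015660 on the minus strand: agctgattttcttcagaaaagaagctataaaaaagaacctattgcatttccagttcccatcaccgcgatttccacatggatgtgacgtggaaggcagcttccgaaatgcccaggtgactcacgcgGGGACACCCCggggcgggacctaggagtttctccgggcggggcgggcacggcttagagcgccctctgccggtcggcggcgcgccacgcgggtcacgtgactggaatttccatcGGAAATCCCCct
Nfkbie, chr17:45555450-45555699 on the plus strand: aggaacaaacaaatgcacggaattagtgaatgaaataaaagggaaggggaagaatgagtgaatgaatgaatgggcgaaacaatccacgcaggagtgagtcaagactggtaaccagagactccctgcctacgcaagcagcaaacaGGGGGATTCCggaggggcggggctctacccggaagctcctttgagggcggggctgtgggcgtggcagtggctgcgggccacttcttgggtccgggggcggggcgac
Birc3, chr9:7873171-7873420 on the minus strand: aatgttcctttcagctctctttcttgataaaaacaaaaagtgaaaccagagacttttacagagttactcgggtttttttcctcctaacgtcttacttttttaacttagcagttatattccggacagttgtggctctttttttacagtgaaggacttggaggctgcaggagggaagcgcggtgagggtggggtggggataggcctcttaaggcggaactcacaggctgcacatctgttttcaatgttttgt

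Nfkbia had a single match, at bases -29 to -20 from the start, and Nfkbie a single match, at bases -106 to -97. In Nfkb2 the matches covered bases -39 to -29 and -11 to -2, and windows at 2 downstream starts of this gene held others. Tnfaip3 had matches at bases -125 to -116 and -12 to -3, and a window at a downstream start of this gene held none. The window of Birc3, whose RefSeq start lies 146 bases from the gene end given in the table, held none, and neither did that of Rela. A match is a run of letters and not a measured binding site, and Tnfaip2, which was not called, held a match too.

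In METTL7A1 cells the mRNAs of Nfkbia and Tnfaip3, which encode inhibitors of the pathway, were lower. So were Nfkb2, Relb, Nfkbie, Birc3 and, by a small margin, Nfkb1. Rela, Nfkbiz and Tnfaip2 did not pass the test. The calls of Tnfaip3, Relb, Nfkbie and Nfkb1 were lost when the shift of adjacent genes was taken out, as described below. All 10 genes were tested, and 7 of them were called, all 7 lower, with a median log2 fold change of -0.43 over the 10. Among all tested genes 42.1% were called, 21.1% as higher and 21% as lower, around a median of -0.03 on the log2 scale. None of the 10 passed the thresholds of the study (adjusted p under 0.01 and a log2 fold change over 1.5 in either direction), which 2.48% of tested genes did. In the 7 called genes the libraries of the 2 groups did not overlap, as was the case for 51.6% of all tested genes. In bulk RNA a lower level in every cell and fewer cells that express a gene cannot be told apart.

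**Figure D1:**
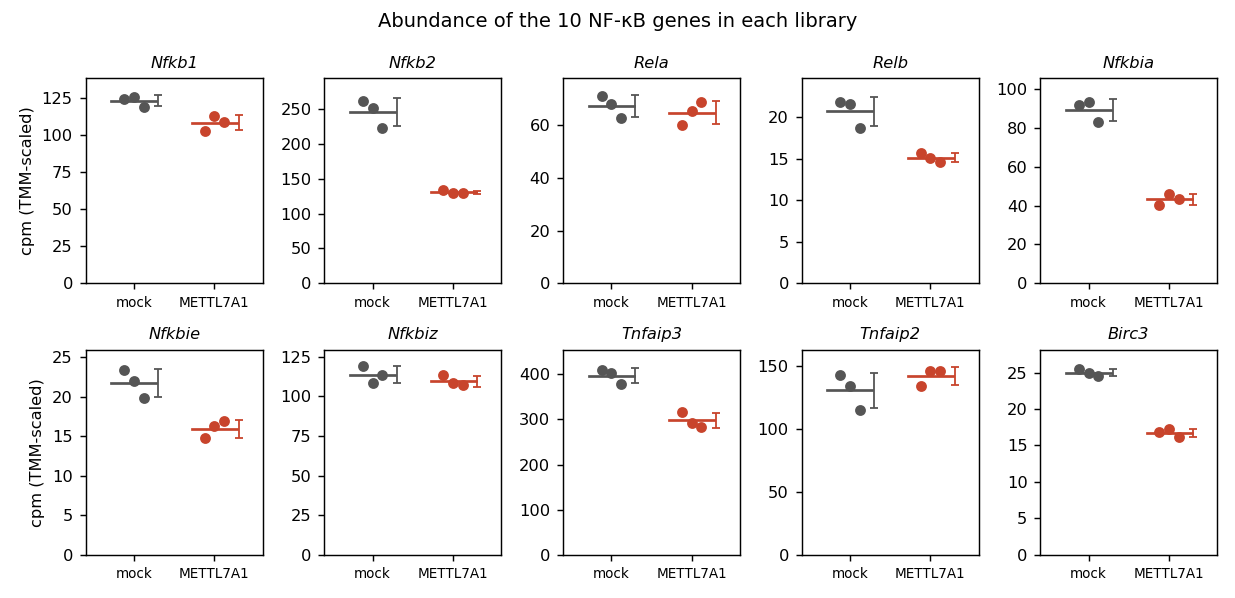
Abundance of each of the 10 NF-κB genes in cpm, with an axis from 0 in each panel. Points are the 3 mock (grey) and 3 METTL7A1 (red) libraries, horizontal lines the group means and bars the SD. The groups are separated for all but Rela, Nfkbiz and Tnfaip2.

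Genes in the regions around several members were lower as well. For each gene the median log2 fold change of its 40 nearest neighbours of fair abundance was computed, and the test was repeated with that median as an offset. The median entered as a fixed value, so SEs and p values with the offset leave out the spread among the neighbours. These 40 genes spanned windows of unequal width. That of Rela ran from 5.27 to 6.07 Mb on chromosome 19, and that of Nfkbia from 44.2 to 65.2 Mb on chromosome 12. The calls of Nfkbia, Nfkb2 and Birc3 held under the offset. Those of Relb, Nfkbie, Tnfaip3 and Nfkb1 were lost, while Nfkbiz was then called as lower and Tnfaip2 as higher. With the offset 5 of the 10 members were thus called, while 4146 of all 13166 tested genes were. The part of copy number or of any other regional effect was not tested.

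**Figure D2:**
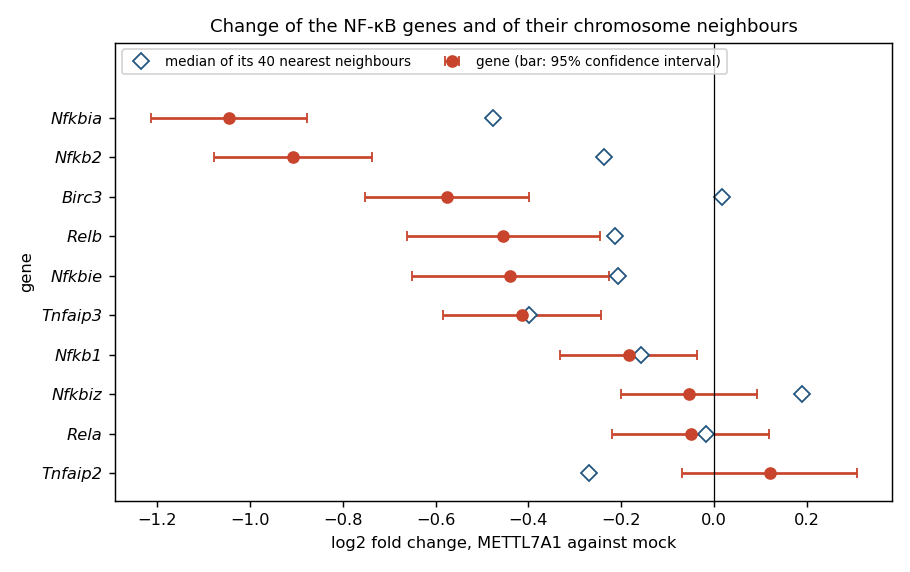
Log2 fold change (METTL7A1 against mock) of each gene with its 95% confidence interval (red), and the median log2 fold change of its 40 nearest chromosome neighbours (open diamonds). The intervals of Nfkbia, Nfkb2, Birc3, Nfkbiz, Relb and Nfkbie lie below the median of their neighbours, the last 2 narrowly, that of Tnfaip2 lies above it, while those of Tnfaip3, Nfkb1 and Rela include it.

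Among the subunits, Nfkb2 (chromosome 19, 46304737 to 46312090, plus strand) encodes p100, the precursor of p52 that itself acts as an IκB. It was at 262, 252 and 223 cpm in the mock libraries and at 133, 129 and 130 cpm in the METTL7A1 libraries. Every METTL7A1 library lay far below the lowest mock library, and the METTL7A1 values were the tighter of the 2 sets. On the log2 scale it changed by -0.91 ± 0.08 (SE, edgeR adjusted p = 7.61e-06), a level lower by 46.7%. The 40 neighbours had a median of -0.24, none of them was lower by as much, and with the offset Nfkb2 was at -0.67 (SE 0.08, edgeR adjusted p = 7.41e-05). Psd overlaps an exon of Nfkb2 on the opposite strand and had at most 60 counts in any library, which is at most 2.1% of the Nfkb2 count.

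Relb (chromosome 7, 19606217 to 19629438, minus strand), the partner of p52 in the non-canonical arm, was the least abundant subunit. Its levels were 21.9, 21.6 and 18.7 cpm in mock and 15.7, 15.1 and 14.6 cpm in METTL7A1 cells. The groups were separated, with mock replicate 3 nearest to the METTL7A1 libraries. On the log2 scale it changed by -0.45 ± 0.09 (SE, edgeR adjusted p = 0.00277). Its neighbours had a median of -0.21, and with the offset the value of -0.24 was not called (edgeR adjusted p = 0.075).

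Nfkb1 (chromosome 3, 135584655 to 135691546, minus strand), which encodes p105, the precursor of p50, stood at 124, 126 and 119 cpm in mock and at 103, 113 and 109 cpm in METTL7A1 cells. The groups did not overlap, but the gap between them was small. The log2 fold change was -0.18 (SE 0.07, edgeR adjusted p = 0.0469), and the call was lost in 10 of 14 alternative settings, among them the omission of any library other than mock replicate 3. The neighbours of Nfkb1 had a median of -0.16.

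Rela (chromosome 19, 5637483 to 5648130, plus strand) encodes p65, the transactivating subunit of the canonical dimer. It was at 71.0, 68.1 and 62.7 cpm in mock and at 60.3, 65.3 and 69.0 cpm in METTL7A1 cells. The 2 groups overlapped almost entirely. The log2 fold change was -0.05 with a 95% confidence interval of -0.22 to 0.12 (edgeR adjusted p = 0.631), so a change beyond those bounds was not seen. Rela and Nfkb2 lie on the same chromosome but in different surroundings, as the neighbours of Rela had a median of -0.02.

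Of the inhibitors, Nfkbia (chromosome 12, 55489411 to 55492647, minus strand) changed most. It encodes IκBα, the IκB that is degraded and resynthesised fastest. Its levels were 91.9, 93.5 and 83.1 cpm in the mock libraries and 40.4, 45.8 and 43.7 cpm in the METTL7A1 libraries. The highest METTL7A1 library remained well under the lowest mock library. On the log2 scale it changed by -1.05 ± 0.08 (SE, edgeR adjusted p = 2.46e-06), or 51.5% lower. Nfkbia lies in a lowered stretch of chromosome 12, where 38 of its 40 neighbours were lower and their median was -0.48. With the offset its log2 fold change was -0.57 (SE 0.08, edgeR adjusted p = 0.000238), so the call held while the size moved by more than 1.5 times.

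Nfkbie (chromosome 17, 45555716 to 45563169, plus strand), the gene of IκBε, fell less. It was at 23.3, 22.0 and 19.8 cpm in mock and at 14.7, 16.2 and 16.9 cpm in METTL7A1 cells. The groups were separated, and the spread within each was wider than for Nfkbia in relation to its level. The log2 fold change was -0.44 (SE 0.1, edgeR adjusted p = 0.00394), and with the offset -0.23 (edgeR adjusted p = 0.0926). Nfkbiz (chromosome 16, 55811375 to 55838899, minus strand) encodes IκBζ, a nuclear IκB that acts as a cofactor on secondary response genes. It was at 119, 108 and 114 cpm in mock and at 113, 108 and 107 cpm in METTL7A1 cells, and the groups overlapped. Its log2 fold change was -0.05 (95% confidence interval -0.2 to 0.09, edgeR adjusted p = 0.554). The neighbours of Nfkbiz rose, with a median of 0.19, and with the offset it was at -0.24 (edgeR adjusted p = 0.0175). The log2 fold change of 9 of its 40 neighbours was below that of Nfkbiz.

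Tnfaip3 (chromosome 10, 19000910 to 19015410, minus strand) encodes A20, a ubiquitin-editing enzyme that shuts off signalling upstream of IKK, and it was the most abundant of the 10. Levels were 409, 403 and 378 cpm in mock and 317, 293 and 284 cpm in METTL7A1 cells. All METTL7A1 libraries were below all mock libraries. This is a log2 difference of -0.41 ± 0.08 (SE, edgeR adjusted p = 0.00146). However, 33 of its 40 neighbours were lower too, with a median of -0.4, and the offset left a difference of -0.01 (edgeR adjusted p = 0.912).

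Birc3 (chromosome 9, 7848699 to 7873024, minus strand) encodes cIAP2, a ubiquitin ligase of the TNF receptor complex that restrains cell death. It was at 25.5, 25.01 and 24.5 cpm in mock and at 16.8, 17.3 and 16.2 cpm in METTL7A1 cells. The replicates were close together in both groups and far apart between groups. This is a log2 difference of -0.58 ± 0.08 (SE, edgeR adjusted p = 0.000217), a level lower by 32.9%. Its neighbours had a median of 0.02, but they were mixed, with 19 of the 40 lower and 21 higher. The log2 fold change of 4 of them was below that of Birc3. With the offset the value of Birc3 was -0.59 (edgeR adjusted p = 0.000245). Among stretches of 31 bases in Birc3 transcripts, 11.6% also occur in transcripts of other genes and 1.84% in those of its paralog Birc2. Birc2, the gene of cIAP1, averaged 42.4 ± 2.54 cpm (mock) and 47.9 ± 5.55 cpm (METTL7A1; SD, n = 3 each) and was not called (edgeR adjusted p = 0.151).

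Tnfaip2 (chromosome 12, 111442469 to 111455018, plus strand), a TNF-induced gene whose product takes part in membrane protrusion, was the only member with a positive value. It was at 142, 134 and 115 cpm in mock and at 134, 146 and 145 cpm in METTL7A1 cells. The groups overlapped, and mock replicate 3 stood lowest. The log2 fold change was 0.12 (95% confidence interval -0.07 to 0.31, edgeR adjusted p = 0.287). Of its 40 neighbours 34 were lower, with a median of -0.27, and with the offset Tnfaip2 was called at 0.39 (SE 0.09, edgeR adjusted p = 0.00543). The log2 fold change of 5 of these neighbours was above that of Tnfaip2.

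Levels can be compared between genes only per length, here as cpm per kilobase of exon. In mock cells the order began with Tnfaip3 (86.3 ± 3.62), Nfkb2 (74.7 ± 6.08) and Nfkbia (56.8 ± 3.54), followed by Tnfaip2 (34.2 ± 3.64), Nfkb1 (29.8 ± 0.908), Nfkbiz (27.5 ± 1.27) and Rela (24.8 ± 1.56; SD, n = 3 for each). Relb (9.37 ± 0.798), Nfkbie (8.96 ± 0.746) and Birc3 (5.89 ± 0.124) came last. Of the neighbours in this order, Tnfaip2 and Nfkb1 overlapped in their libraries, as did Relb and Nfkbie. In METTL7A1 cells Tnfaip3 (64.8 ± 3.69) and Nfkb2 (39.8 ± 0.676) still led, but Nfkbia (27.5 ± 1.75) ranked below Tnfaip2 (37.2 ± 1.8). There the ranges of Nfkbia and Nfkbiz (26.5 ± 0.804), of Nfkbiz and Nfkb1 (26.2 ± 1.22), of Nfkb1 and Rela (23.9 ± 1.6) and of Relb (6.84 ± 0.246) and Nfkbie (6.58 ± 0.464) overlapped.

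**Figure D3:**
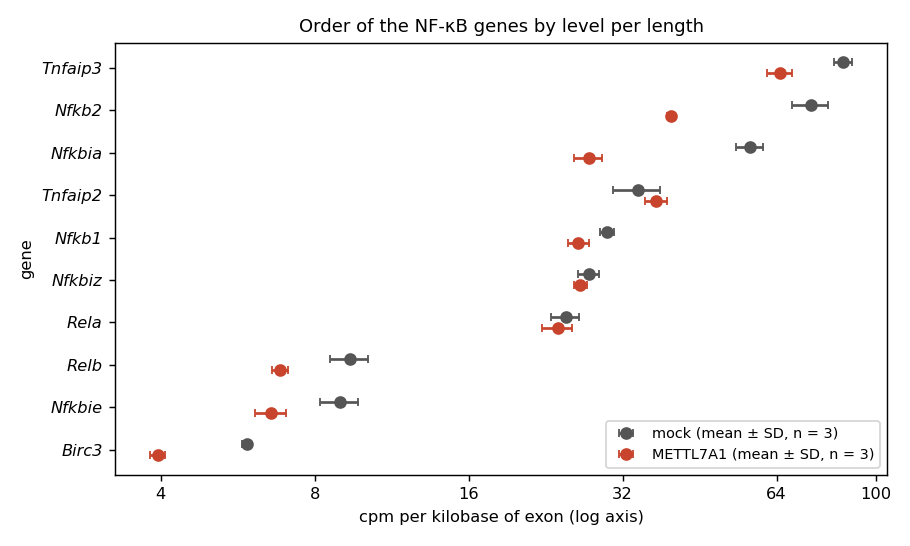
Level per length of the 10 genes (cpm per kilobase of exon, log axis) as mean ± SD of 3 libraries, in mock (grey) and METTL7A1 (red) cells. Nfkbia drops from place 3 in mock to the range of Nfkbiz and Nfkb1.

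Ratios between members within a library do not depend on scaling between libraries. The ratio of Nfkbia to Rela per length was 2.23, 2.36 and 2.28 in mock replicates 1 to 3 and 1.15, 1.21 and 1.09 in METTL7A1 replicates 1 to 3. Each METTL7A1 library thus held less Nfkbia mRNA per Rela mRNA than any mock library. Shifts shared with chromosome neighbours were not taken out of the ratios. The neighbours of Nfkbia had a median log2 fold change of -0.48 and those of Rela of -0.02. The ratio of Nfkb2 to Nfkb1 was 2.5 ± 0.142 in mock and 1.52 ± 0.0974 in METTL7A1 cells (SD, n = 3 each). Relb to Rela went from 0.378 ± 0.0115 to 0.288 ± 0.03, and Nfkbie to Nfkbia from 0.158 ± 0.00656 to 0.24 ± 0.0111 (SD, n = 3 each). In all 4 ratios the groups were apart, and no test was made of them. With 3 libraries against 3 an exact permutation test could not have passed the threshold.

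**Figure D4:**
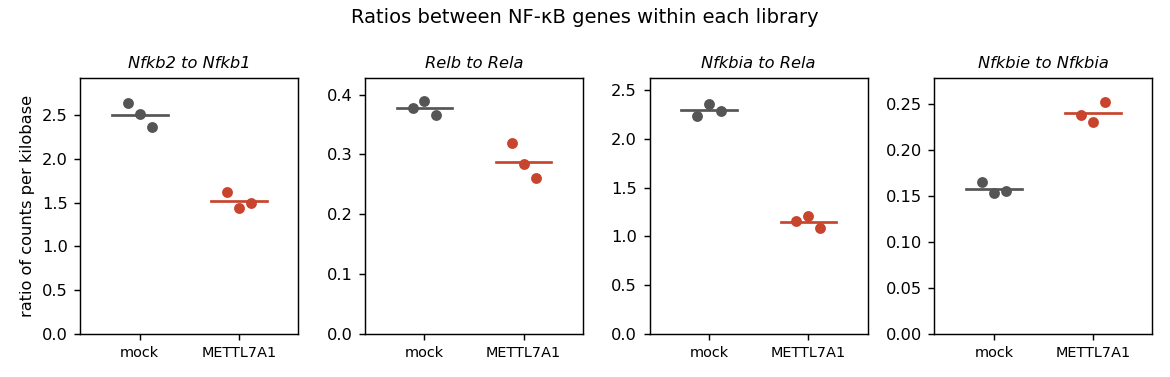
Ratio of counts per kilobase of exon between pairs of members in each library, with group means as lines and axes from 0. The ratio of Nfkbia to Rela is 1.09 to 1.21 in METTL7A1 libraries and 2.23 to 2.36 in mock libraries.

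The other genes of the pathway were counted by role, with no test between the lists. Of the other 4 members of the Rel and IκB family, Bcl3, a nuclear IκB, was called as higher (1.57 ± 0.15 cpm against 2.56 ± 0.232 cpm, SD, n = 3 each; log2 fold change 0.7, SE 0.2, edgeR adjusted p = 0.016). This call was lost without METTL7A1 replicate 3 or mock replicate 2. Rel (-0.14, SE 0.12), Nfkbib (-0.18, SE 0.12) and Nfkbid (-0.4, SE 0.17) were not called. Of 26 kinases and adaptors, 8 were higher and 4 lower, around a median of 0.14 on the log2 scale. The 46.2% called among them is near the 42.1% of all tested genes. Those with the smallest p were Ikbke (1.74, SE 0.1), Tab3 (0.49, SE 0.07) and Tbk1 (0.42, SE 0.08) among the higher, and Traf3 (-0.47, SE 0.06), Map3k14, the gene of NIK (-0.44, SE 0.08), and Rnf31 (-0.36, SE 0.1) among the lower. With the neighbour offset 5 of the 26 were called, while 4146 of all 13166 tested genes were. The calls of Tbk1 (-0.007, edgeR adjusted p = 0.96) and Rnf31 (-0.061, edgeR adjusted p = 0.698) were lost with the offset.

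At the receptor level 6 of 11 genes were higher and none lower (median 0.42), led by Tnfrsf1b (0.76, SE 0.07), Tlr3 (0.88, SE 0.09) and Tlr2 (0.65, SE 0.1). The 54.5% called among these receptors compares with 42.1% of all tested genes. Of 10 ligands 3 were abundant enough to be tested, and all 3 were higher. Tnf and Il1b passed the abundance filter through the METTL7A1 libraries alone, so their calls are no support for a direction of the list. Il1a, the gene of interleukin-1α, lay between 66.3 and 72.9 cpm in mock and between 620 and 675 cpm in METTL7A1 libraries, higher by 3.24 ± 0.08 on the log2 scale (SE, edgeR adjusted p = 1.35e-09). Tnf (3.08, SE 0.31) and Il1b (1.2, SE 0.24) were scarce, with 5 to 7 and 13 to 18 counts in the mock libraries and 46 to 61 and 29 to 48 in the METTL7A1 libraries. The 7 ligands left untested had at most 10 counts in any library.

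Negative regulators outside the members were called as higher in 5 and as lower in 1 of 12 tested cases, or 50% called against 42.1% of all tested genes. Pdlim2 (1.53, SE 0.11), Tnip1 (0.4, SE 0.07) and Zc3h12a (0.45, SE 0.08) were higher, and Otulin (-0.37, SE 0.08) was lower, a call lost with the neighbour offset (-0.22, edgeR adjusted p = 0.0691). Of 31 other NF-κB target genes, a list chosen with earlier results of these data known, 27 were tested. Among these 27, 19 were higher and 2 lower, with a median of 0.48 on the log2 scale. The 77.8% called compares with 42.1% of all tested genes, 21.1% as higher. Ccl2, among the higher, had 9 to 18 counts in mock and 66 to 115 in METTL7A1 libraries. It passed the abundance filter through the METTL7A1 libraries alone, so its call is no support for a direction of the list. The higher genes with the smallest p were the secreted factors C3 (2.03, SE 0.09), Ccl20 (2.81, SE 0.16) and Lcn2 (2.47, SE 0.16). Vcam1 (-0.72, SE 0.08) and Traf1 (-0.6, SE 0.09) were the lower ones. Nfkbia and Birc3 were thus lower and C3, Ccl20 and Lcn2 higher in the same libraries, but these 3 were picked by their p values. Vcam1 and Traf1 went the way of Nfkbia and Birc3, and 6 of the 27 were not called. A link between the members and the other target genes was not tested. The 6 markers of macrophages and leukocytes summed to 5.90 to 6.80 cpm in mock and 14.1 to 16.5 cpm in METTL7A1 libraries. Cd68 and Csf1r were the 2 of them called, both higher, while Ptprc had at most 8 counts and Adgre1 at most 1 count in any library. Csf1r had 12 to 20 counts in the mock and 46 to 73 in the METTL7A1 libraries. It passed the abundance filter through the METTL7A1 libraries alone, so its call is no support for a direction of these markers. Fibroblast markers summed to 17.4 to 19.8 cpm in mock and 23.9 to 26.6 cpm in METTL7A1 libraries, and endothelial markers to under 1 cpm in each. The fibroblast sum was carried by Pdgfra (17.7 to 24.5 cpm on average, edgeR adjusted p = 0.00177), while Col1a1 averaged 0.767 cpm in mock and 0.502 cpm in METTL7A1 libraries. The part of these cell types in the results was not tested.

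**Figure D5:**
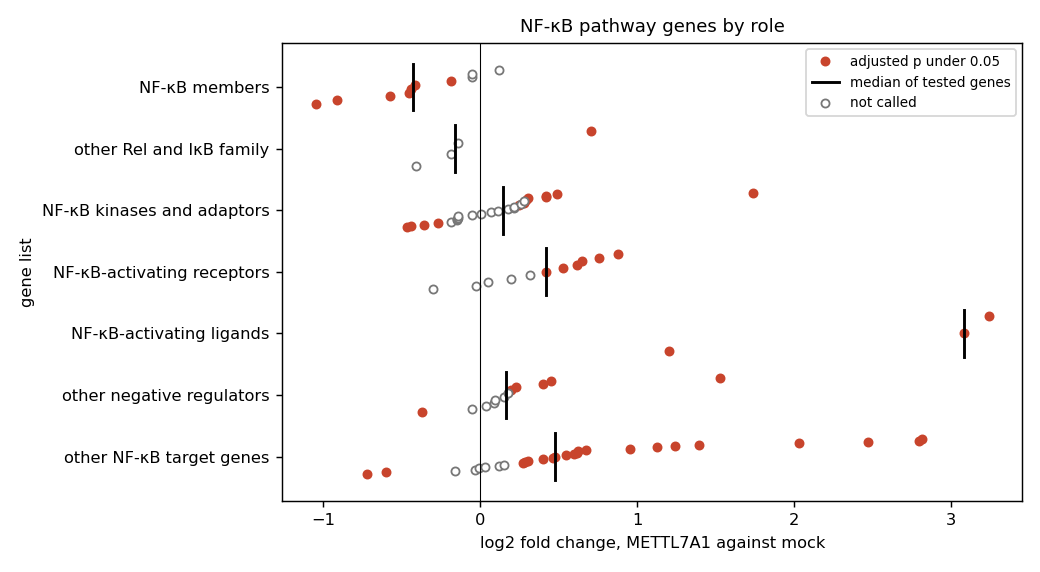
Log2 fold change (METTL7A1 against mock) of each tested gene of the NF-κB pathway by role. Filled points are called at an adjusted p under 0.05, open points are not, and vertical bars mark the median, which is -0.43 for the 10 members and 0.48 for the other target genes.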

How the data were processed

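Per the labels and the study's methods, the authors depleted ribosomal RNA, prepared stranded libraries, trimmed and aligned read pairs to mm10 with STAR 2.5.3a, and deposited raw counts per gene from featureCounts on an Ensembl annotation. The deposited table also gives the summed exon length of each gene, an annotation value in bases listed among the other columns. Whether featureCounts used strand is not given in the sources used here. Groups and replicate numbers came from sample titles.

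Counts were analysed in R 4.3.3. Genes with at least 1 cpm in at least 3 libraries were kept, scaled with TMM and tested with edgeR 4.0.16 (glmQLFit, glmQLFTest) without covariates, and p values were adjusted over all tested genes by the Benjamini-Hochberg method. The SE is the log2 fold change divided by the root of F. Alternatives were RLE and upper quartile scaling, 2 other abundance filters, DESeq2 1.42.0, voom of limma 3.58.1, replicate number as a block, each library left out and the offset of 40 neighbours (average log2 cpm over 2). Library totals of 18386780 to 28459338 counts set the counting error. Libraries of a group differed beyond sampling noise (chi-square per degree of freedom at least 18.2). The fit was tested on simulated data. Deviations from the group mean correlated at -0.15, 0.20 and -0.37 between same-numbered libraries. With 3 libraries in a group these values cannot decide whether the numbers pair them.

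Members and lists were chosen with earlier results of these data known. All members are named, with all other Rel and IκB genes and, for each remaining pathway list, the 3 called genes with the smallest p in each direction. Birc2, Psd, Ccl2, Cd68, Csf1r, Ptprc, Adgre1, Pdgfra, Col1a1, Tnip3, Saa3 and Sele are named outside this rule, after their values were seen. Of 31-base stretches of Nfkb2 transcripts 16.3% also occur in transcripts of other genes, of Tnfaip2 5.02%, and of the remaining members other than Birc3 at most 2.08%. Promoters are RefSeq windows.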

Additional observations from a re-analysis of the deposited data

How the results depend on the processing

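Over 14 alternatives the number of called members ranged from 5 (neighbour offset) to 7, and from 6 to 7 when a library was left out. The number of all called genes ranged from 3761 to 5988, with 3761 to 5753 when a library was left out and 4146 with the neighbour offset. Nfkbia (-1.09 to -0.57), Nfkb2 (-0.96 to -0.67) and Birc3 (-0.6 to -0.54) kept their direction and call in every setting. Relb, Nfkbie and Tnfaip3 lost theirs only with the neighbour offset, which by its construction removes shifts shared with adjacent genes. Rela, never called, turned its sign without METTL7A1 replicate 1 and without mock replicate 1, and ranged from -0.091 to 0.0083 with a library left out. Whether replicate numbers pair the libraries could not be decided. With the replicate block 6 members were called, the block costing only the call of Nfkb1 (-0.18, edgeR adjusted p = 0.0914), and 4810 genes in all. Kinases and adaptors went from 12 calls to 5 with the neighbour offset, and the other Rel and IκB genes from 1 call to between 0 and 2 when a library was left out. The ligands went from 3 calls to 1 without any METTL7A1 library, since Tnf and Il1b then no longer reached the filter in 3 libraries. Depth limits the scarce genes most, and several pathway genes with at most 10 counts had SEs over 1 in the fit without a filter.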

Other observations

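Under the abundance filter lay 7 ligands, 1 negative regulator and 4 other target genes. For 3 of these pathway genes the libraries did not overlap between groups. The share of 51.6% among all tested genes covers only genes above the filter. The 3 genes were looked up in the fit without a filter. They were picked by their separation in these same libraries, so their adjusted p values are no support for a change. Adjusted p values of that fit also differ in scale from those of the main fit. Nfkb2 had 5.06e-19 there against 7.61e-06, and Nfkb1 0.299 against 0.0469 (edgeR). Tnip3, the gene of an A20-binding inhibitor, was counted 13, 23 and 11 times in the METTL7A1 libraries and 0, 1 and 1 times in the mock libraries. Its log2 fold change was 4.25 ± 0.72 (SE, edgeR adjusted p = 7.38e-08). Saa3, an acute phase gene, had 5, 20 and 7 counts against 0, 1 and 2 (3.16 ± 0.74, SE, edgeR adjusted p = 0.000216). Sele, which encodes E-selectin, had 17, 29 and 21 counts against 10, 14 and 12 and was not called (0.81 ± 0.36, SE, edgeR adjusted p = 0.104). With so few mock counts the fitted fold changes of Tnip3 and Saa3 depend on the prior count. They were chosen after their values were seen.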
